A study of Homo sapiens with 2 samples.

Results

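Read-through genes are annotated genes that join a pair of neighbours on the same strand and carry both names, such as TMEM189-UBE2V1. The 53 read-through genes described here were chosen by name and position, of 12007 genes listed in all. Each has a name of the form A-B in which at least 1 of A and B is itself listed on the same strand within 100 kb, and HLA and mitochondrial names were left out. Both libraries came from ACHN, a cell line derived from a human renal cell carcinoma. The cells carried either a lentiviral shRNA against KIAA1429 (shKIAA1429, labelled KIAA1429 knockout) or a control shRNA (shNC, labelled Negative Control), and both lines had been selected with puromycin; the labels do not say which KIAA1429 shRNA was sequenced. With 1 library per group no difference could be set against a spread between replicates, and no test was run. The values are FPKM, fragments scaled to gene length and library size, and the sequencing depth behind them is unknown.

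KIAA1429, now named VIRMA, is the scaffold of the complex that places N6-methyladenosine on mRNA, mostly near stop codons and in the part of the message after them, and it has been linked to the choice of poly(A) sites. At the end of a gene, cleavage and polyadenylation factors cut the nascent RNA downstream of a poly(A) signal and RNA polymerase II is then released. When the polymerase passes that site and runs into the next gene, the splicing machinery can join an exon of the first gene to an exon of the second, and the chimeric RNA may encode a fusion protein or be destroyed by nonsense-mediated decay. Much of its sequence is usually also exon of one neighbour or the other, and within such shared exons a sequencing fragment can be assigned to the read-through gene only where it crosses the joint.

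The joint itself is the sequence that sets a read-through RNA apart, so it is printed for members that differed most between the libraries or were most abundant. In each line the lower-case letters are the last 15 bases of the exon before the joint, the capitals are the first 15 bases of the exon after it, and the sequence is that of a GENCODE 29 transcript.
TMEM189-UBE2V1: tctgcatcaccacagGAGTAAAAGTCCCTC
RNASEK-C17orf49: cgcaaggaatacatgGTCGGAGAGATCTTC
ISY1-RAB43: cagaaggctcctgggCTGCAGATCTGGGAC
GPR75-ASB3: gcggccacccggcagACTGGTCAAACAAAT
C7orf55-LUC7L2: aatttcatggcaaggGAGATACAACTCGTC
TMEM256-PLSCR3: agaaagccactctggGCGGCCTGAGCACGC
PRR5-ARHGAP8: attcctgcatcctggAGCTGCAGAGAGACA
NME1-NME2: catacaagttggcagGACCATGGCCAACCT
RPL36A-HNRNPH2: attttccggaaaaagCTACACCAAAATTGC

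These joints were read on GRCh38. For TMEM189-UBE2V1 the joint links exon 5 to exon 6 of the transcript, base 50127975 to base 50096820 of chromosome 20 on the minus strand. For RNASEK-C17orf49 it links base 7014277 to base 7015062 of chromosome 17 on the plus strand, and for ISY1-RAB43 base 129130088 to base 129095169 of chromosome 3 on the minus strand. The joint of GPR75-ASB3 lies on chromosome 2, from base 53859828 to base 53765585 on the minus strand, and uses exon 1 of the transcript, the only one that meets GPR75. The intron removed at the joint held an annotated 3′ end of the upstream gene in most members, so that the transcript as annotated skips the upstream poly(A) site. For C7orf55-LUC7L2 the joined bases are 139345621 and 139376062 of chromosome 7 on the plus strand. TMEM256-PLSCR3 joins base 7403310 to base 7395090 of chromosome 17 on the minus strand, and the exon after its joint belongs to neither neighbour. PRR5-ARHGAP8 joins base 44735162 to base 44786457 of chromosome 22, NME1-NME2 base 51161272 to base 51166827 of chromosome 17, and RPL36A-HNRNPH2 base 101391822 to base 101411936 of chromosome X, all on the plus strand.

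Exon structures of the read-through gene and of both neighbours were found in GENCODE 29 for 52 of the 53 members. In 47 of these the chosen joining transcript went straight from an exon of the upstream gene to an exon of the downstream gene, and in 5 at least 1 exon lay between them. The splice donor was an annotated donor of the upstream gene in 39 members and the acceptor an annotated acceptor of the downstream gene in 45. The intron at the joint contained a 3′ end of the upstream gene in 47 members and a 5′ end of the downstream gene in 43. It had a median length of 15569 bases and ranged from 136 bases in RTEL1-TNFRSF6B to 501759 bases in IQCJ-SCHIP1.

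In 23 of the 52 members every exon base was also an exon base of one of the neighbours. In 37 members fewer than 10% of exon bases were the member's own, and the median was 2.20%. The largest share, 56.5%, was in BOLA2-SMG1P6, which ends in a pseudogene. TMEM189-UBE2V1, ISY1-RAB43, C7orf55-LUC7L2, NME1-NME2, RPL36A-HNRNPH2 and TNFSF12-TNFSF13 had 0 own bases. PRR5-ARHGAP8 had 703 own bases and TMEM256-PLSCR3 had 183.

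A fusion reading frame was annotated in 27 of the 52 members, counted where at least 30 coding bases were shared in frame with each neighbour. TMEM189-UBE2V1 shared 62.3% of its coding bases in frame with TMEM189, a desaturase of plasmalogen synthesis, and 37.7% with UBE2V1, the non-catalytic partner of the ubiquitin-conjugating enzyme UBC13. NME1-NME2, which joins a pair of nucleoside diphosphate kinases, shared 47.5% and 52.1%. TNFSF12-TNFSF13, whose product is known as TWE-PRIL, joins the cytokines TWEAK and APRIL and shared 50.3% and 49.7%. ISY1-RAB43 kept the frame of the splicing factor ISY1 for 85.7% of its coding bases and that of RAB43 for 0%, and RPL36A-HNRNPH2 kept the frame of the ribosomal protein gene for 76.6% of its coding bases and that of the splicing factor gene HNRNPH2 for 0%. For 12 members GENCODE 29 had no coding transcript, although the deposited files class every listed gene as protein-coding.

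The neighbours of read-through genes lay close together. For the 47 members with both neighbours listed, name order followed the direction of transcription in all 47, and the gap between the neighbours in the deposited GRCh37 positions had a median of 4613 bases. Of these pairs 33 (70.2%) were within 10 kb, including 6 that overlapped, against 18.9% of 11906 pairs of next listed genes on the same strand, whose median gap was 90.4 kb. The other 6 members had 1 neighbour listed under the name they carry. All 100 neighbours found by the rule overlapped their read-through gene, so the limit of 100 kb decided no member. Members were chosen by position and each joins genes that it overlaps. The closeness of the neighbours is thus set in part by the choice, and these counts are a description.

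The ends of the genes were searched for the letters of the poly(A) signal. AATAAA or ATTAAA, searched on the transcribed strand in the last 50 bases of the longest coding transcript, was found in 38 of 50 upstream neighbours (76.0%), in 37 of 50 downstream neighbours (74.0%) and in 78.7% of 11854 listed genes. It was found in 20 of the 39 read-through genes with such a transcript (51.3%), and its absence says only that these letters are not in this window. The last 30 bases of 3 upstream neighbours, with AATAAA in capitals, show the signal at the annotated end of the gene. They are on the strands and chromosomes of the joints above, in GENCODE 29 on GRCh38.
TMEM189: atgctcAATAAAtatttgctgtaactgtca
ISY1: ttAATAAAatctactgaatggtttatttta
RNASEK: tatctcAATAAAgagaatctgctctcttca

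Markers of renal epithelium were present in both libraries. Of 10 renal epithelial markers 9 were listed, summing to 773 FPKM in shNC and 695 FPKM in shKIAA1429, with CA9 not listed. VIM, which is also expressed by mesenchymal cells, took 368 and 228 FPKM of these sums, and the other 8 summed to 404 and 467 FPKM, with 4 higher and 4 lower in shKIAA1429. Of 4 leukocyte markers CD68 and LYZ were listed (7.80 FPKM in sum in shNC and 2.21 FPKM in shKIAA1429) and PTPRC and CD3E were not. The 4 endothelial markers were not listed, and 2 of 4 fibroblast markers were, with sums of 1.75 and 2.60 FPKM. VIRMA itself was at 3.92 FPKM in shNC and 3.22 FPKM in shKIAA1429, 82.1% of the control level. Mitochondrial genes took 42.2% of the listed FPKM in shNC and 34.6% in shKIAA1429.

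Most read-through genes were minor products of their loci. Their median level was 1.21 FPKM in shNC and 1.38 FPKM in shKIAA1429, while that of their neighbours was 4.92 and 4.10 FPKM. The share of a locus was computed as the FPKM of the read-through gene over the sum of that gene and its listed neighbours. FPKM are scaled to the length of each gene. A sum over genes of unlike length can therefore differ when the same fragments are divided differently between them. The median share was 10.6% in shNC and 12.8% in shKIAA1429, and among the 47 members with both neighbours listed the read-through gene made up more than 50% of its locus in 2 in shNC and in 7 in shKIAA1429. With the 6 members that have 1 neighbour in the sum the counts were 5 and 10.

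**Figure D1:**
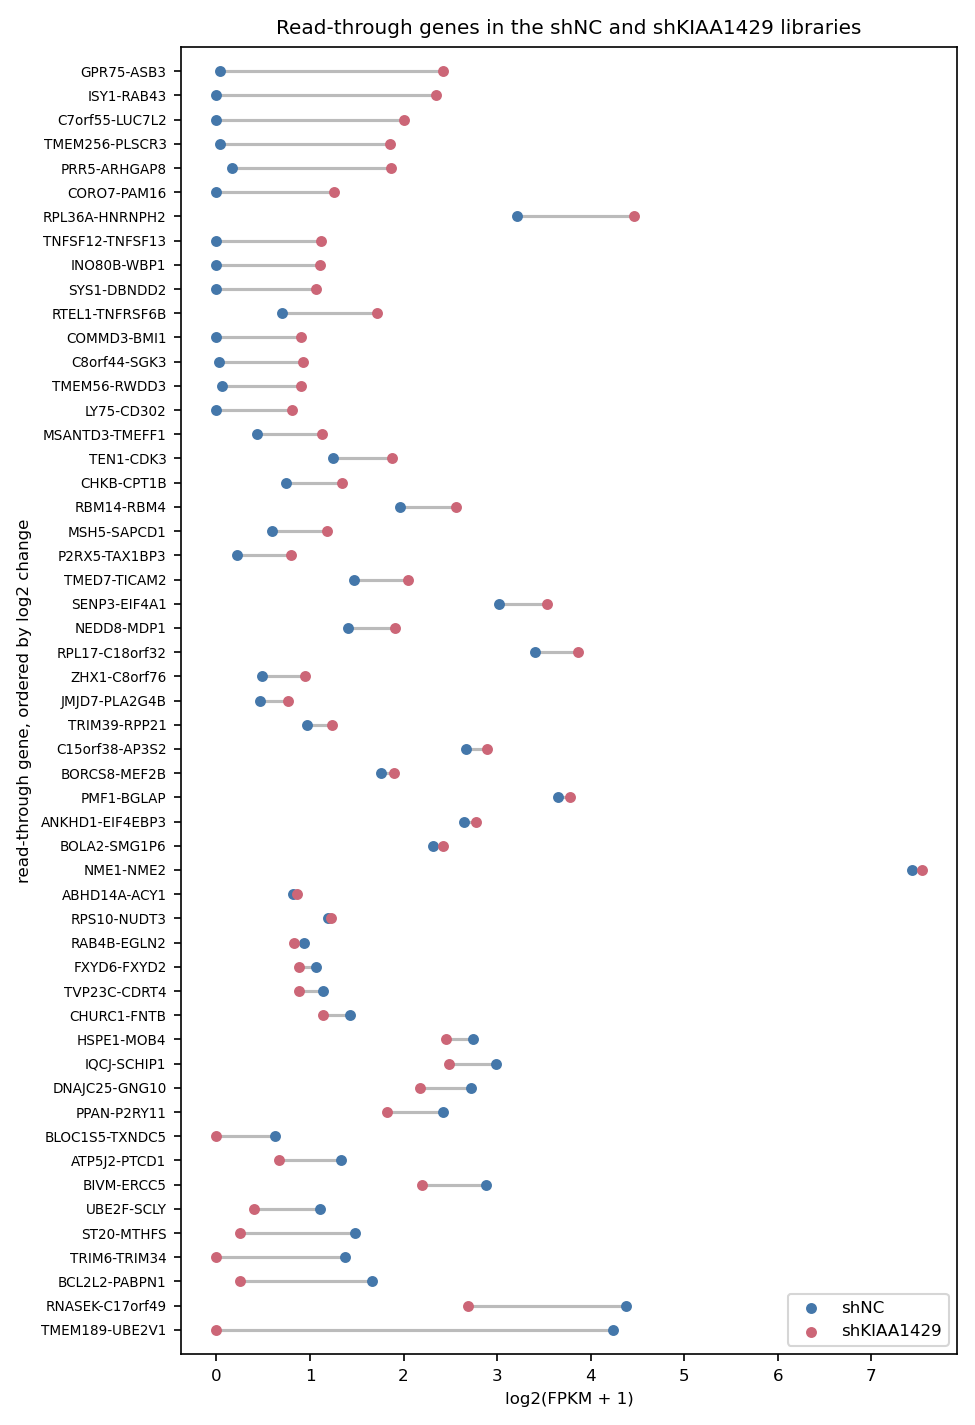
Levels of the 53 read-through genes in the shNC library (blue) and the shKIAA1429 library (red), with log2(FPKM + 1) on the horizontal axis, 1 library per group and genes ordered by the difference. Points at 0 are genes listed at 0 FPKM: 8 members in shNC and 3 in shKIAA1429.

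More members were listed at 0 in the control library than in the knockdown library. In shNC 8 of 53 members (15.1%) stood at exactly 0, against 0.258% of all 12007 listed genes. In shKIAA1429 3 of 53 (5.66%) did, against 0.208% of all genes. The files list a gene only if it is above 0.5 FPKM in at least 1 library, so each of these 11 members had to be above that level in the other one. Among the 780 other genes that overlap a listed gene on the same strand, 1.15% were at 0 in shNC and 1.41% in shKIAA1429. Members without own sequence held most of the zeros, 10 of 23, against 1 of the 29 members with own exon bases.

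The 8 members listed at 0 in shNC were all between 0.748 and 4.08 FPKM in shKIAA1429. ISY1-RAB43 was the highest of them, at 4.08 FPKM, and C7orf55-LUC7L2 followed at 3.02 FPKM. CORO7-PAM16, which joins a Golgi coronin to a subunit of the mitochondrial import motor, was at 1.38 FPKM. TNFSF12-TNFSF13 was at 1.17 FPKM, INO80B-WBP1, which starts in a subunit of the INO80 chromatin remodeller, at 1.16 FPKM, and SYS1-DBNDD2 at 1.08 FPKM. COMMD3-BMI1, which ends in the Polycomb gene BMI1, was at 0.875 FPKM and LY75-CD302, a pair of lectin receptor genes, at 0.748 FPKM. A further 4 members were above 0 but under 0.05 FPKM in shNC, which gives 12 of 53 under that level there, against 0.325% of all genes.

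The 3 members listed at 0 in shKIAA1429 were TMEM189-UBE2V1, TRIM6-TRIM34 and BLOC1S5-TXNDC5. TMEM189-UBE2V1 was at 17.9 FPKM in shNC, the highest level among members that a library listed at 0. TRIM6-TRIM34, which joins a pair of tripartite motif genes, was at 1.59 FPKM in shNC, and BLOC1S5-TXNDC5, which ends in a protein disulfide isomerase of the endoplasmic reticulum, was at 0.540 FPKM. No other member was under 0.05 FPKM in shKIAA1429, where 0.267% of all genes were.

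A log2 change was computed as the log2 of (FPKM + 1) in shKIAA1429 over (FPKM + 1) in shNC, which understates the change of low genes. Across all 53 members 36 were higher and 17 were lower in shKIAA1429, and 57.2% of all listed genes were higher. Once each library was rescaled to the same sum, 67.9% of all 53 members and 74.6% of the genes with a mean of at least 1 FPKM were higher. These shares were 64.2% and 50% after centring on the median change of all genes. After rescaling without mitochondrial genes they were 67.9% and 57.7%. The excess of higher members over the background therefore depended on the scaling. A mean of at least 1 FPKM over both libraries was required before a change was counted, which 33 members passed. A member at 0 in 1 library passes that mean only with at least 2 FPKM in the other and then lies beyond 1.5 by construction. All 5 members counted above 1.5 were at 0.123 FPKM or less in shNC, so they passed the mean only through shKIAA1429. The counts that follow are therefore a description. Of the 33 members, a log2 change above 1.5 was found in 5 (15.2%, against 0.383% of 10702 genes) and one below -1.5 in 2 (6.06%, against 0.252%). Both directions together gave 7 members, against 0.635% of all genes. Among 630 other genes that overlap a listed gene on the same strand, 1.43% were higher and 0.794% lower by that limit.

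The 5 higher members were at 0.123 FPKM or less in the control library. GPR75-ASB3 (chromosome 2 of GRCh37, 53897430 to 54087297) joins an orphan receptor to an ankyrin-repeat adaptor of ubiquitin ligases. It was at 0.0259 FPKM in shNC and 4.35 FPKM in shKIAA1429, a log2 change of 2.38. Its upstream neighbour GPR75 went from 1.10 to 1.88 FPKM and ASB3 from 2.46 to 1.56 FPKM. The summed locus was 3.59 FPKM in shNC and 7.79 FPKM in shKIAA1429, and its log2 change of 0.94 on the FPKM + 1 scale was the highest of the 33 loci.

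ISY1-RAB43 (chromosome 3 of GRCh37, 128806418 to 128879879) was listed at 0 FPKM in shNC, and both of its neighbours were lower in shKIAA1429. ISY1 was at 5.83 FPKM in shNC and 2.81 FPKM in shKIAA1429, and RAB43, a small GTPase of Golgi traffic, at 2.56 and 0.433 FPKM. The sum of the locus, 8.39 and 7.32 FPKM, differed by -0.18 on the log2 scale, while the read-through gene went from 0% to 55.7% of it.

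PRR5-ARHGAP8 (chromosome 22 of GRCh37, 45098113 to 45258586) starts in a gene for a subunit of mTOR complex 2. It was at 0.123 FPKM in shNC and 2.64 FPKM in shKIAA1429, a log2 change of 1.70. PRR5 was at 2.37 and 1.93 FPKM and ARHGAP8 at 2.91 and 0.873 FPKM. The locus sum was 5.41 FPKM in shNC and 5.45 FPKM in shKIAA1429, so the total was nearly the same in both libraries.

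TMEM256-PLSCR3 and C7orf55-LUC7L2 were small parts of abundant loci. TMEM256-PLSCR3 (chromosome 17 of GRCh37, 7293053 to 7307416) was at 0.0286 FPKM in shNC and 2.63 FPKM in shKIAA1429, a log2 change of 1.82, beside TMEM256 at 33.5 and 20.7 FPKM and the scramblase gene PLSCR3 at 15.7 and 15.3 FPKM. All 4 of its GENCODE 29 transcripts are classed as targets of nonsense-mediated decay. C7orf55-LUC7L2 (chromosome 7 of GRCh37, 139026106 to 139107345) was at 0 and 3.02 FPKM beside LUC7L2, a U1 snRNP-associated splicing factor, at 17.7 and 20.6 FPKM. Its upstream neighbour is listed under the newer symbol FMC1, at 5.27 and 3.94 FPKM, and with FMC1 counted the read-through share in shKIAA1429 was 11.0% in place of 12.8%.

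The 2 lower members were among the most abundant. RNASEK-C17orf49 (chromosome 17 of GRCh37, 6915954 to 6920839) was at 19.8 FPKM in shNC and 5.43 FPKM in shKIAA1429, a ratio of 0.274 and a log2 difference of -1.69. RNASEK, which encodes ribonuclease kappa, was also lower, at 71.5 and 42.0 FPKM, and C17orf49, which encodes a chromatin-associated protein, was at 1.42 and 1.74 FPKM. Here the summed FPKM of the locus was lower, 92.7 FPKM in shNC and 49.1 FPKM in shKIAA1429, a log2 change of -0.90. At TMEM189-UBE2V1 (chromosome 20 of GRCh37, 48697661 to 48770174) the summed FPKM of the locus was similar, 53.6 and 48.2 FPKM, with UBE2V1 at 34.1 and 46.3 FPKM. The share of the read-through gene there went from 33.4% to 0%.

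**Figure D2:**
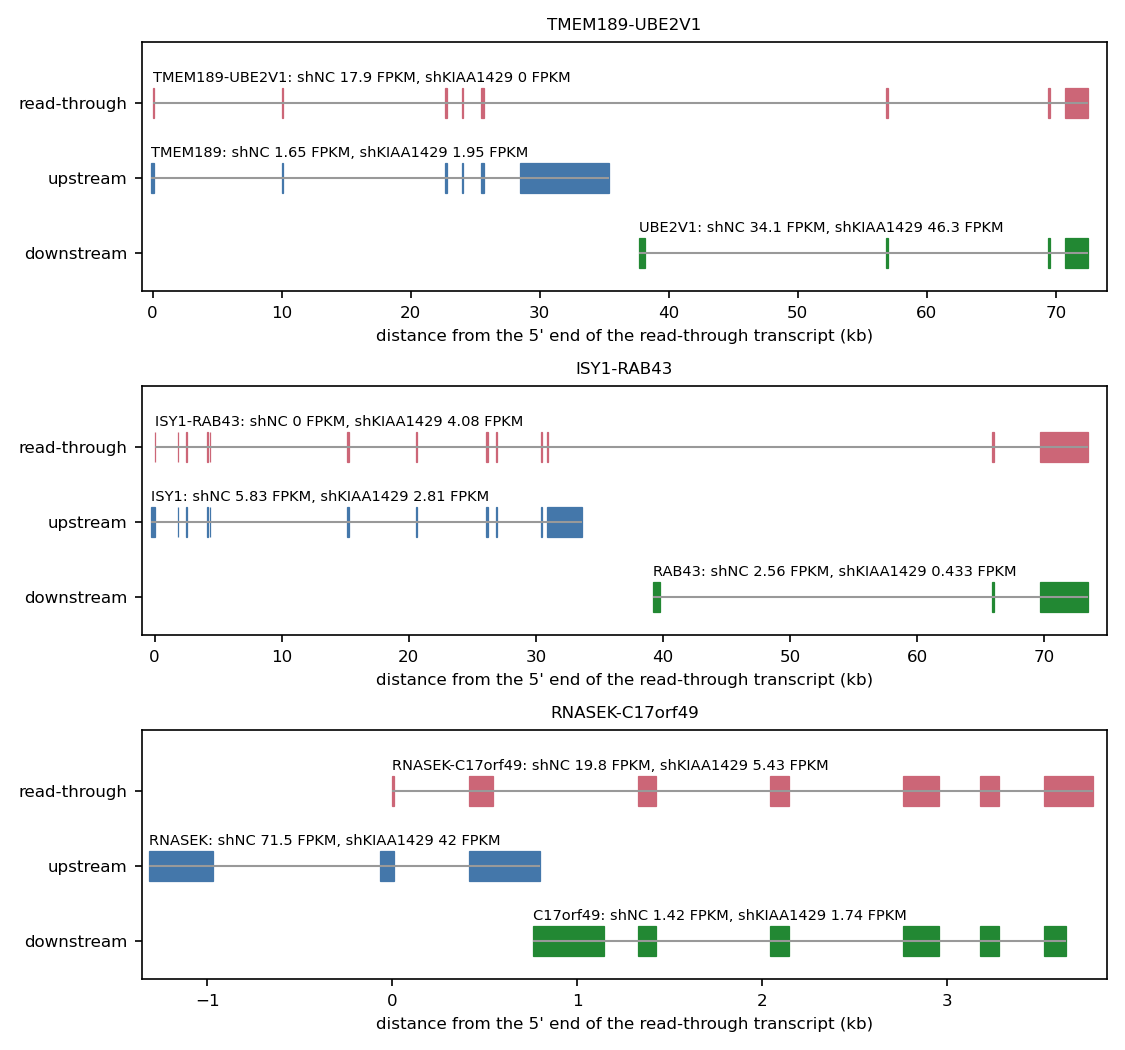
Exons of the joining transcript (red) and of the longest coding transcript of the upstream (blue) and downstream (green) neighbour at 3 loci, against the distance in kb from the 5′ end of the joining transcript, from GENCODE 29, with the FPKM of each gene in each library. In all 3 loci the read-through transcript leaves out the 3′ end of the upstream gene and the first exon of the downstream gene.

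Below the limit of 1.5, BCL2L2-PABPN1 was the member with the lowest log2 change above 0 FPKM in both libraries. It joins the anti-apoptotic gene BCL2L2 to PABPN1, the nuclear poly(A)-binding protein, and was at 2.16 FPKM in shNC and 0.192 FPKM in shKIAA1429, a log2 change of -1.41. BCL2L2 was at 8.01 and 7.65 FPKM and PABPN1 at 20.1 and 16.6 FPKM. ST20-MTHFS, which ends in an enzyme of folate metabolism, was at 1.78 and 0.187 FPKM, and UBE2F-SCLY, which starts in an E2 enzyme for NEDD8, at 1.16 and 0.323 FPKM. Their neighbours together went from 7.65 to 9.22 FPKM and from 4.70 to 5.16 FPKM.

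The most abundant read-through gene differed little. NME1-NME2 was at 173 FPKM in shNC and 185 FPKM in shKIAA1429, a log2 change of 0.10, and held 51.6% and 57.6% of its locus. NME1 was at 28.0 and 37.6 FPKM and NME2 at 133 and 98.5 FPKM. These kinases are near-copies of each other, so reads could also have been divided between them. RPL36A-HNRNPH2 was at 8.29 and 21.1 FPKM, a log2 change of 1.25, beside the ribosomal protein gene RPL36A at 136 and 124 FPKM and HNRNPH2 at 5.31 and 33.5 FPKM. RPL17-C18orf32, which starts in another ribosomal protein gene, was at 9.60 and 13.6 FPKM, and ribosomal protein genes have many processed copies with which reads can be shared.

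Of the other abundant members, SENP3-EIF4A1, PMF1-BGLAP, ANKHD1-EIF4EBP3 and C15orf38-AP3S2 were higher by 0.12 to 0.52 on the log2 scale. SENP3-EIF4A1 joins a SUMO protease to a translation initiation helicase and was at 7.11 FPKM in shNC and 10.6 FPKM in shKIAA1429. PMF1-BGLAP, which starts in a kinetochore gene, was at 11.6 and 12.8 FPKM. ANKHD1-EIF4EBP3 was at 5.26 and 5.83 FPKM. C15orf38-AP3S2, which ends in an adaptor subunit of vesicle traffic, was at 5.34 and 6.45 FPKM, and its share of the locus was 44.9% and 60.0% once its upstream neighbour, listed as ARPIN at 4.14 and 2.75 FPKM, was counted. BIVM-ERCC5, HSPE1-MOB4 and IQCJ-SCHIP1 were lower, by 0.69, 0.28 and 0.50. BIVM-ERCC5 ends in the repair nuclease ERCC5 and was at 6.40 and 3.60 FPKM, whereas ERCC5 itself was at 5.42 and 10.6 FPKM. HSPE1-MOB4, which starts in a mitochondrial chaperonin, was at 5.67 and 4.48 FPKM, and IQCJ-SCHIP1 was at 6.93 and 4.59 FPKM. Of the 14 GENCODE 29 transcripts of IQCJ-SCHIP1 2 join the neighbours, and 53.8% of its exon bases belong to neither. Its FPKM, and its 80.5% and 66.8% of a sum with 1 neighbour, therefore need not come from joined RNA.

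Changes close to 0 were counted for single genes and for summed loci. Of the 33 members with a mean of at least 1 FPKM, 12 (36.4%) had a log2 change within 0.5 of 0, whereas 84% of all genes and 78.9% of the other genes that overlap on the same strand did. The difference was present at each level: 4 of 11 members with a mean of 1 to 2 FPKM were within 0.5 beside 85.0% of other genes, 2 of 11 from 2 to 5 FPKM beside 84.1%, and 6 of 11 above 5 FPKM beside 83.9%. For the summed loci of the same members, 30 of 33 (90.9%) were within 0.5, and 1 locus was beyond 1.5. Most of a locus sum comes from the neighbours, so it can lie near 0 whatever the read-through gene does. Among the neighbours with a mean of at least 1 FPKM, 74 of 92 (80.4%) were within 0.5. No interval can be given for these shares of loci, because the number of fragments is unknown.

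**Figure D3:**
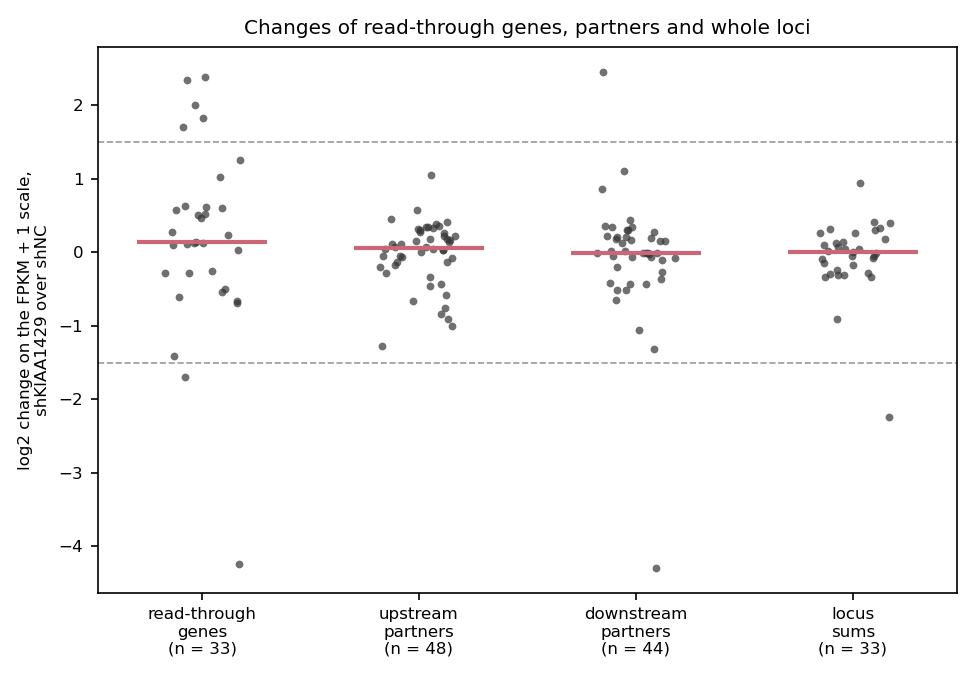
Log2 changes on the FPKM + 1 scale, shKIAA1429 over shNC, of the read-through genes, their upstream and downstream neighbours and the summed loci, each point a gene or locus with a mean of at least 1 FPKM, red bars the medians and dashed lines the limits of 1.5. Of the 33 members 12 read-through genes and 30 summed loci lie within 0.5 of 0, and the sums are mostly made up of the neighbours.

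Medians of the groups were close to that of all genes. The median log2 change was 0.13 for the 33 read-through genes, 0.055 for 48 upstream neighbours, -0.0093 for 44 downstream neighbours and 0.0085 for the summed loci, beside 0.058 for all 10702 genes. The neighbours past 1.5 were HNRNPH2, which was higher, and TNFRSF6B, which was lower. TNFRSF6B, a decoy receptor for death ligands, was at 18.6 FPKM in shNC and 0.00096 FPKM in shKIAA1429, and RTEL1-TNFRSF6B at 0.620 and 2.28 FPKM. This was the locus whose sum was beyond 1.5, with a log2 change of -2.24. Its genes differ in length, so the summed FPKM need not follow the total number of fragments from the locus.

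Read-through genes and the sum of their neighbours differed in sign in 20 of 33 members (60.6%), beside 47.1% of 278 pairs of other genes that overlap on the same strand. After rescaling both libraries to the same sum it was 17 of 33, beside 41.0% of those pairs. The comparison is loose, because those pairs set single genes against each other, both with a mean of at least 1 FPKM. They overlap by position, need not share exons, and can include neighbours of the members. In 5 of the 7 members past 1.5 the signs were opposite, and the exceptions were C7orf55-LUC7L2 and RNASEK-C17orf49.

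**Figure D4:**
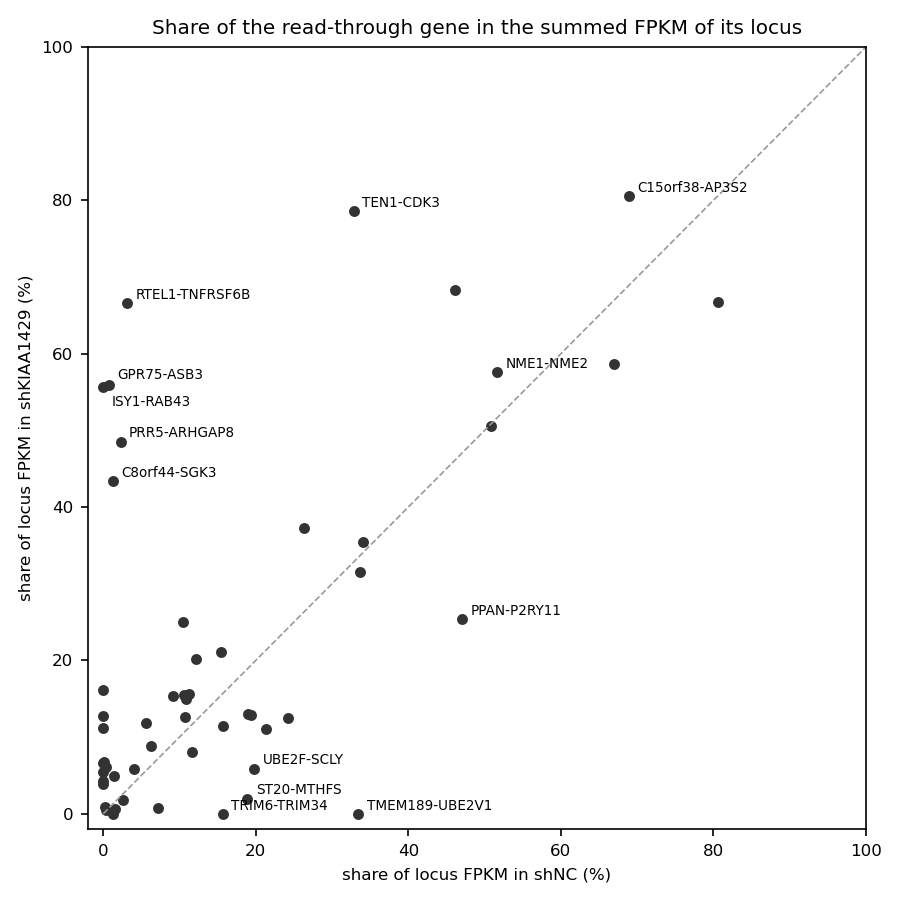
Share of each of the 53 read-through genes in the summed FPKM of the gene and its listed neighbours, in percent, in shNC (horizontal) and shKIAA1429 (vertical), with equal shares on the dashed line and 1 library per group. RTEL1-TNFRSF6B, ISY1-RAB43 and GPR75-ASB3 lie far above the line and TMEM189-UBE2V1 lies on the horizontal axis at 33.4%.

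The share of the locus was higher in shKIAA1429 for 34 members and lower for 19. It was higher by more than 10 percentage points in 13 members and lower by more than 10 points in 8. The 8 members at 0 in shNC could only gain share and the 3 at 0 in shKIAA1429 could only lose it. Their directions were fixed by the listing, and the counts are a description. The widest gains were in RTEL1-TNFRSF6B, from 3.10% to 66.6%, in ISY1-RAB43, and in GPR75-ASB3, from 0.723% to 55.9%. PRR5-ARHGAP8 went from 2.27% to 48.5%, and TEN1-CDK3, which starts in a subunit of the telomere-capping CST complex, from 32.9% to 78.6%. TEN1-CDK3 itself was at 1.38 and 2.68 FPKM, while TEN1 was at 1.88 and 0.0684 FPKM. After TMEM189-UBE2V1, the widest losses were in PPAN-P2RY11, from 47.1% to 25.3%, ST20-MTHFS, from 18.9% to 1.98%, TRIM6-TRIM34, from 15.7% to 0%, and UBE2F-SCLY, from 19.8% to 5.89%. PPAN-P2RY11 joins a ribosome biogenesis gene to a purine receptor gene and was at 4.37 and 2.53 FPKM, with P2RY11 at 0.885 and 3.04 FPKM.

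Members without an annotated coding transcript had lower medians than members with one. The 12 members without had a median of 0.580 FPKM in shNC and 1.22 FPKM in shKIAA1429, and 9 were higher in shKIAA1429. The highest of these 12 was SENP3-EIF4A1, at 7.11 and 10.6 FPKM. The 40 members with a coding transcript had medians of 1.67 and 2.59 FPKM, and 26 were higher. With 57.2% of all listed genes higher, these counts were not tested. The 27 members with a fusion frame had medians of 1.65 and 1.36 FPKM, with 16 higher and 11 lower, and the 25 without had 0.917 and 2.28 FPKM, with 19 higher and 6 lower.

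**Figure D5:**
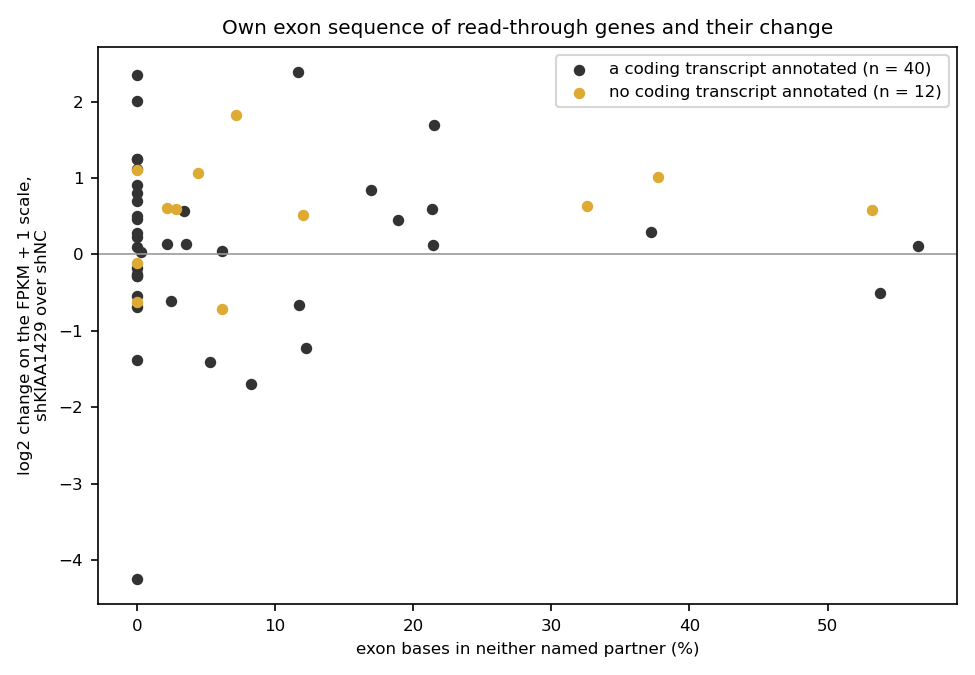
Log2 change on the FPKM + 1 scale, shKIAA1429 over shNC, of 52 read-through genes against the percentage of their exon bases that neither neighbour holds in GENCODE 29, with members that have a coding transcript in black and those without in yellow. Members at 0% own bases cover almost the full range of changes.

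On the FPKM + 1 scale, members with little own sequence and members with more differed by similar amounts. Over 52 members the Pearson correlation between the own share of exon bases and the absolute log2 change was -0.12 and the Spearman correlation -0.042, given as a description across genes that share 2 libraries. Members with 0 own bases had a median absolute change of 0.69 and those with own bases one of 0.60. These values include members with a mean under 1 FPKM, whose changes this scale understates. Values of 0 in a library were not spread alike: 10 of the 23 members without own bases had one, against 1 of the 29 with own bases.

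Genes of the pathways that end transcription or that destroy RNA by nonsense-mediated decay differed little. Of 31 genes for cleavage, polyadenylation and transcription termination all 31 had a mean of at least 1 FPKM, 26 were higher and 5 lower in shKIAA1429, and 0 passed 1 on the log2 scale. Their changes ran from -0.67 to 0.57 with a median of 0.16. Of 21 genes for nonsense-mediated decay and translation termination all 21 had a mean of at least 1 FPKM, 17 were higher, 4 were lower and 0 passed 1, with changes from -0.13 to 0.69 and a median of 0.19. All genes had a median of 0.058 and 57.3% were higher. After centring on that median, 23 and 16 of these genes were higher, when 50% of all genes were. After rescaling to the same sum 27 and 21 were, when 74.6% of all genes were higher.

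The deposited values do not show how fragments were divided between a read-through gene and its neighbours, or how many fragments crossed a joint. A different use of the joint and a different division of shared fragments cannot be told apart in FPKM.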

How the data were processed

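Poly(A) RNA from ACHN cells was sequenced from both ends in strand-specific libraries, 1 per group, and conditions were taken from the labels. The deposited values are FPKM per gene, computed by the authors. The submitters' processing notes name cutadapt 1.9, HISAT2 2.0.4, StringTie 1.3.4d, DESeq2 and edgeR without giving their roles, and the genome build is not given in the sources used here. Identifiers and positions in the files match GENCODE genes mapped to GRCh37. Only protein-coding genes above 0.5 FPKM in at least 1 library are listed (12014 rows, 12007 symbols, taking the row of highest mean for a repeated symbol). FPKM keeps no fragment count, so depth is unknown and precision cannot be stated. Values of genes that share exons depend on how fragments were divided between them.

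The log2 change is that of (FPKM + 1) in shKIAA1429 over (FPKM + 1) in shNC for genes with a mean of at least 1 FPKM, with the limit of 1.5 that the paper's methods give. No test was run. Up- and downstream neighbours were set by strand and position; where 1 neighbour was listed, its place in the name was used instead of its position, a departure from the plan. Exons, frames, joints and 3′ ends came from GENCODE 29 on GRCh38, matched by Ensembl identifier. For each member 1 joining transcript was chosen, coding before non-coding, direct joints first, then the longest. Named members were those past 1.5, those listed at 0 in a library, the 12 highest means, the 5 highest and 5 lowest changes, and the 5 widest gains and losses of share. The members and lists were chosen with earlier results of these data known. Alternatives were a pseudocount of 0.1, centring, 2 rescalings, no filter, a mean of at least 5 FPKM, a limit of 1, overlapping neighbours only, both neighbours listed, and summed rows of a symbol. The steps were tested on simulated data. Python 3.11.15, NumPy 2.4.6, pandas 2.3.3 and matplotlib 3.10.9 were used.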

Additional observations from a re-analysis of the deposited data

How the results depend on the processing

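No paired analysis was possible because each group has 1 library. The counts of read-through genes past 1.5, 5 higher and 2 lower, were 4 to 6 higher and 2 to 3 lower under most alternatives. With a mean of at least 5 FPKM 11 members were left and 0 were higher, since the 5 higher members had means of 1.33 to 2.19 FPKM. With a limit of 1 in place of 1.5, 7 were higher and 3 lower. The background moved as well. Of all genes 0.383% were higher in the main setting, 1.05% with a pseudocount of 0.1, 1.24% after rescaling to 1000000 and 1.61% with a limit of 1. The shares lower were 0.252%, 0.561%, 0.299% and 0.897%. With a mean of at least 5 FPKM the median difference in share became -0.28 percentage points in place of 2.62. The opposite sign to the neighbours was then found in 7 of 11 members in place of 20 of 33. Without a filter the median log2 change of read-through genes was 0.29 in place of 0.13, the median difference in share 3.87 points, and 31 members had the opposite sign, since all 53 were then counted. When both libraries were set to a sum of 1000000, this moved the median of all genes from 0.058 to 0.24, and those of read-through genes, upstream and downstream neighbours and locus sums to 0.33, 0.24, 0.17 and 0.18. Neighbours past 1.5, 1 higher and 1 lower, became 3 and 4 with a pseudocount of 0.1 and after rescaling without mitochondrial genes. After rescaling to 1000000 they were 3 and 2, and the causes were not tested. With the looser limit of 1 in place of 1.5, the neighbours past it were 3 and 5. Of all 53 members 36 were higher and 17 lower as deposited and under both rescalings, and 34 and 19 after centring. Of 124 values for named members under the other pseudocount, centring and scalings, 90 kept their side of 1.5 and 34 passed it in the same direction.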
